A study of Homo sapiens with 4 samples.

Results

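The mannose receptor gene MRC1 and 9 further C-type lectin receptor genes of myeloid cells, CD209, CLEC4A, CLEC4D, CLEC4E, CLEC5A, CLEC7A, CLEC10A, CLEC12A and CLEC2B, were examined in THP1 cells. They were chosen by name, and MRC1 because its gene holds miR-511. THP1 is an established human cell line grown from a monoblastic acute myeloid leukaemia with the MLL-AF9 fusion gene. All 4 samples carry that fusion. The cells received a single dose of 30 nM miR-511-5p mimic (2 arrays) or of negative control #1 mimic (2 arrays), and total RNA was taken on day 2, after culture in DMEM/Ham's F12 with 0.5% FCS and BSA. Each of 2 experiments gave 1 array of each treatment, so n = 2 for every mean below. The arrays were hybridised in a single colour (Cy3), all on 1 slide. The 10 genes were represented by 14 of the 34127 probes on the array, each printed once, and the array holds 27193 gene names in all. Transcripts were measured in bulk RNA, in which fewer cells of a kind and less RNA per cell cannot be told apart.

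C-type lectin receptors are membrane proteins of macrophages, dendritic cells and monocytes that bind sugars or lipids on microbes and on the body's own cells. MRC1 (CD206) takes up mannose-bearing glycoproteins, and CD209 (DC-SIGN) binds mannose and fucose residues. CLEC7A (Dectin-1), CLEC4E (Mincle) and CLEC4D activate the kinase SYK and the adaptor CARD9, the last 2 through the FCER1G chain, and CLEC5A works through the adaptor TYROBP (DAP12). CLEC4A (DCIR) and CLEC12A carry inhibitory motifs, CLEC10A binds galactose-type sugars, and CLEC2B (AICL) is a ligand of an NK cell receptor. High MRC1 and CD209 are known from alternatively activated macrophages and dendritic cells, and CLEC12A from monocytes and acute myeloid leukaemia cells.

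The microRNA itself is shown first, as RefSeq lists it for build GRCh38.p14, because its hairpin lies in the MRC1 gene. The sequence of the transfected mimic was not examined. The miR-511 hairpin lies on the plus strand at chr10:17845107-17845193, within the bounds of MRC1 in that annotation. The 5p arm, named by the label of the mimic, is at chr10:17845122-17845142, and the 3p arm at chr10:17845160-17845179. Capitals mark the seed, bases 2 to 8 from the 5′ end.
hsa-miR-511-5p: gUGUCUUUugcucugcaguca
hsa-miR-511-3p: aAUGUGUAgcaaaagacaga

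The sequence that pairs with the 5p seed, AAAGACA, was in 0 of the 14 lectin probes and in 331 (0.970%) of the 34127 probe sequences of the array. On the other strand of the probes it was in 332, among them the CLEC4E probe. A probe covers only 60 bases of a transcript, so the count says nothing of the rest of these transcripts.

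Before the values of the lectins, the whole arrays are given as their background. Of the 34127 probes, 63.4% were well above background on all 4 arrays and 28.8% on none, where "well above background" is the scanner software's own mark for a spot. Per array, 22130 to 23647 probes carried it, the fewest on the miR-511 mimic array of experiment 1. Differences were tested for 22638 probes, those with a value on all arrays and the mark on both arrays of at least 1 treatment. With limma, 498 of them (2.2%) had an unadjusted p below 0.05, of which 211 (0.932% of the tested probes) were lower with miR-511 mimic. After Benjamini-Hochberg adjustment 0 passed, and the lowest adjusted p in limma was 0.790. An exact permutation test of 2 arrays against 2 cannot go below p = 0.333. Of the 12 monocytic marker genes with a probe under their listed name, 11 were well above background on all arrays, among them CD14, CD33, CD68, CSF1R, MPO and SPI1. Of 8 macrophage and dendritic cell markers, 6 were so on none, among them CD163, MSR1 and CD1C, and the other 2 (CCL17 and MARCO) on all 4. Genes of other lineages also carried the mark on all arrays (CD3D, CD79A and HBB). No marker of these lists passed the unadjusted threshold.

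Of the 10 lectin genes, 3 were well above background on all 4 arrays, CD209 (at all 3 of its probes), CLEC4A and CLEC12A. CLEC2B carried the mark on both control arrays and on neither miR-511 mimic array. The other 6 genes, MRC1, CLEC4D, CLEC4E, CLEC5A, CLEC7A and CLEC10A, carried it on none. Counted by probe, 5 of 14 were well above background on all arrays and 8 on none, beside 63.4% and 28.8% of all probes. On the softer mark of a spot that is positive and significant against its background, 5 genes passed on all 4 arrays, the 4 above and CLEC10A.

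**Figure D1:**
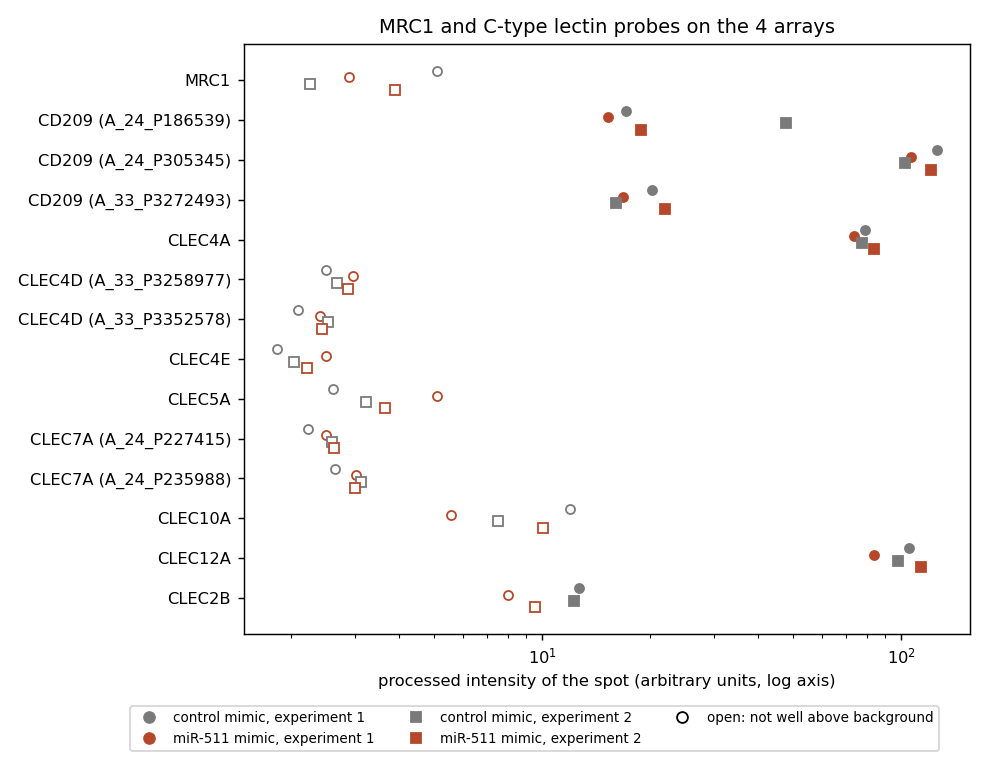
Processed intensity (arbitrary units, log axis) of the 14 lectin probes, 1 row per probe, on the 4 arrays; grey is control mimic, red is miR-511 mimic, circles are experiment 1 and squares experiment 2, and open symbols are spots not well above background. The rows of MRC1, CLEC4D, CLEC4E, CLEC5A, CLEC7A and CLEC10A are open throughout, and in the first CD209 row the control square at 47.8 stands apart. Positions along the axis should be compared within a row only, since probes differ in brightness per transcript.

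MRC1, the gene that holds miR-511, was read by 1 probe. That probe (A_23_P12746, chr10:17952593-17952652 of hg19, plus strand) is named MRC1L1 in the files, a name that RefSeq now gives as a synonym of MRC1, and it lists MRC1's RefSeq transcript. Its processed intensity was 2.90 with miR-511 mimic and 5.09 with control mimic in experiment 1, and 3.89 and 2.25 in experiment 2, in arbitrary units. The last of these is a surrogate, the value that the software writes in place of a spot too close to background. The error that the software gives each of these spots was between 2.01 and 2.38, so each neighbouring pair in the order of the 4 values lay closer together than the error of 1 spot. The control arrays held both the highest and the lowest value, and the groups overlapped.

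Before any subtraction, the MRC1 spot mean was 45.8 with miR-511 mimic and 50.8 with control mimic in experiment 1, and 51.2 and 44.0 in experiment 2. There the miR-511 mimic array of experiment 2 was highest, whereas the signal net of the fitted background surface gives the same order as the processed intensity. The spot mean exceeded the background surface fitted across the array by 3.20 and 5.65 in experiment 1 (miR-511 mimic, then control mimic) and by 4.21 and 0.642 in experiment 2. For comparison, the 153 negative control spots of each array, which are designed to bind no transcript, had medians between -3.06 and -2.34 and 95th percentiles between 0.583 and 1.61. The MRC1 spot lay above 149 and 153 of the 153 in experiment 1, and above 149 and 142 in experiment 2. It was therefore brighter than most negative control spots on every array, while it was not well above background on any. After normalization the log2 difference, miR-511 mimic minus control mimic, was -0.59 in experiment 1 and 0.78 in experiment 2. The signs were opposite, the probe was not in the tested set, and no fold change is given for MRC1.

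**Figure D2:**
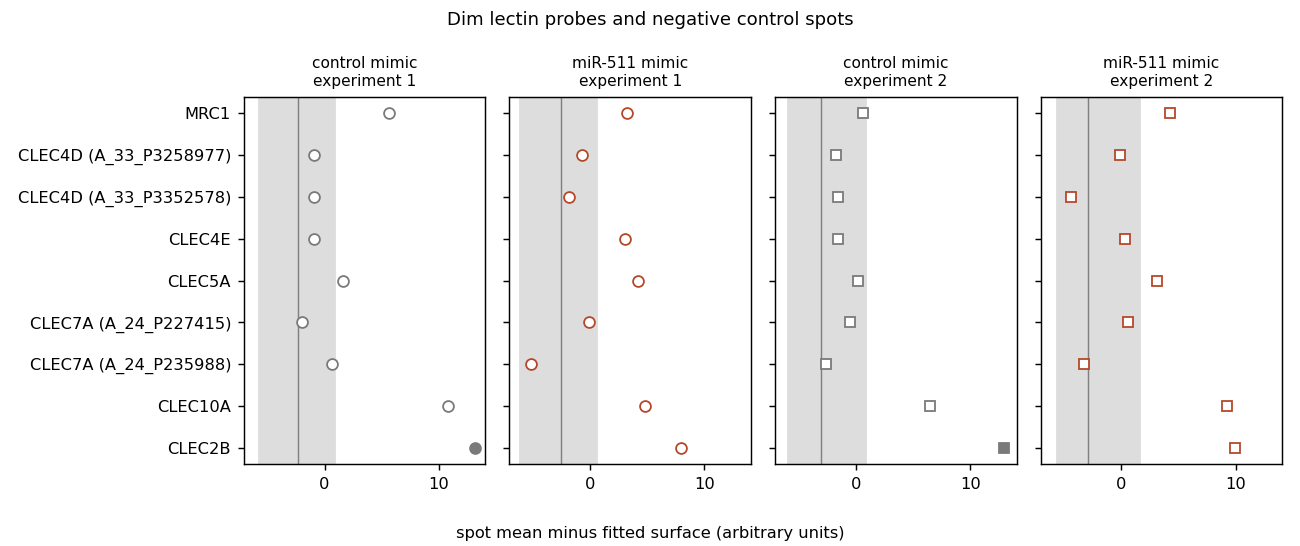
Spot mean minus the fitted background surface (arbitrary units) for the lectin probes that were dim, 1 panel per array; filled symbols are spots well above background, the grey band holds the negative control spots from their 5th to their 95th percentile, and the grey line is their median. MRC1 lies to the right of the band on 3 arrays and within it on the control array of experiment 2, CLEC4D lies within it on all 4, and CLEC10A and CLEC2B lie to its right on all 4.

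CLEC10A, the galactose-type receptor, was positive and significant against its background on all arrays without being well above it. Its processed intensity was 5.57 with miR-511 mimic and 11.9 with control mimic in experiment 1, and 10.01 and 7.51 in experiment 2. Spot errors were between 2.67 and 2.96. The log2 differences were -0.61 and 0.28, so the groups overlapped and the experiments had opposite signs, as for MRC1. The CLEC10A spot lay above 150 to 153 of the 153 negative control spots.

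Of the receptors that signal through SYK, CLEC7A and CLEC4D gave no measured value. All 4 of their probes held surrogate values on all 4 arrays. Their spots lay among the negative control spots, with as few as 18 of 153 below the spot and at most 144. Both extremes came from the CLEC7A probe A_24_P235988, whose listed hg19 position spans only 43 bases for its 60. CLEC4E held surrogates on 3 arrays. On the miR-511 mimic array of experiment 1 its processed intensity was 2.49, with a spot error of 2.07. CLEC5A held surrogates on both control arrays, 2.62 and 3.22, and values of 5.09 (experiment 1) and 3.65 (experiment 2) with miR-511 mimic. Both CLEC5A values with miR-511 mimic were above both surrogates, but none of the 4 spots was well above background and their errors were between 2.62 and 3.21. For these 4 genes a difference between the treatments was not detectable on these arrays.

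CD209, the second mannose-binding receptor, had 3 probes, all on the minus strand of chromosome 19 in hg19 and all well above background on every array. The brightest lay at chr19:7805348-7805407. The other 2 lay in the repeats that encode the neck of the protein, and they are printed because they share the 18 bases in capitals and yet read differently on 1 array (given after the sequences). In their best alignment without gaps 31 bases were identical.
A_24_P186539 (chr19:7810642-7810701): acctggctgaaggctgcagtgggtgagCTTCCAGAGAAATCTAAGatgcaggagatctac
A_33_P3272493 (chr19:7810408-7810467): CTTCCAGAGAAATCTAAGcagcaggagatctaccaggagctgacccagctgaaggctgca

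No CD209 probe shared more than 15 bases with a probe of another gene, but whether they also bind the transcript of the neighbouring relative CLEC4M was not tested. At the brightest probe, A_24_P305345, the normalized log2 level was 6.93 with miR-511 mimic and 6.87 with control mimic in experiment 1, and 6.82 and 6.71 in experiment 2. The higher value was that of miR-511 mimic in both experiments, but the groups overlapped. The log2 fold change was 0.079 with an SE of 0.11 and a 95% interval from -0.23 to 0.38 (limma, unadjusted p = 0.516, adjusted p = 1.00).

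At the neck probe A_33_P3272493 the normalized log2 level was 4.31 with miR-511 mimic and 4.18 with control mimic in experiment 1, and 4.34 and 4.04 in experiment 2. Both miR-511 mimic values were above both control values on this scale, whereas in processed intensity, before normalization, the control array of experiment 1 read 20.3 and the miR-511 mimic array 16.8. The log2 fold change of 0.21 had an SE of 0.10 and a 95% interval from -0.065 to 0.49, and it did not pass (limma, unadjusted p = 0.102). With background correction by normexp it was 0.0094 (limma, unadjusted p = 0.899), on a scale that the offset of 50 compresses for dim spots.

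The other neck probe, A_24_P186539, gave one value far from the rest. Its normalized log2 level was 4.16 with miR-511 mimic and 3.92 with control mimic in experiment 1, and 4.13 and 5.60 in experiment 2. In processed intensity the control array of experiment 2 read 47.8, beside 15.2, 17.1 and 18.8 on the other arrays. On that spot the pixels had a mean of 91.9, a median of 87 and an SD of 27.2, and the software did not mark it as uneven. The log2 differences were 0.24 in experiment 1 and -1.47 in experiment 2, and the log2 fold change was -0.61 with an SE of 0.59 (limma, unadjusted p = 0.355). This value rests on that single array: without it the log2 fold change was 0.23 (unadjusted p = 0.191), and without the control array of experiment 1 it was -1.47 (unadjusted p = 0.00125). In the latter fit the lone control array is assumed to vary like the miR-511 mimic arrays, whose SD was 0.022, so that p takes no account of the spread between control arrays. With normexp the log2 fold change was -0.14, on a scale that the offset compresses for dim spots. The other CD209 probes did not show a high value on the control array of experiment 2, where both read lowest.

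The inhibitory receptors CLEC4A and CLEC12A were well above background on every array. At CLEC4A (chr12:8290933-8290992 of hg19, plus strand) the normalized log2 level was 6.39 with miR-511 mimic and 6.20 with control mimic in experiment 1, and 6.29 and 6.31 in experiment 2. The groups overlapped, and the log2 fold change was 0.089 with an SE of 0.10 and a 95% interval from -0.19 to 0.37 (limma, unadjusted p = 0.429), or 0.016 with normexp. At CLEC12A the levels were 6.56 and 6.61 in experiment 1, and 6.72 and 6.64 in experiment 2. Its log2 fold change was 0.022 with an SE of 0.10 and a 95% interval from -0.27 to 0.31 (limma, unadjusted p = 0.844), the smallest difference of the tested lectin probes. A loss of CLEC12A by more than 0.27 on the log2 scale lies outside this limma interval. That bound rests on a spread that limma moderates with all tested probes, not on the 4 values of this probe alone.

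The CLEC12A probe is printed because its bases are not contiguous on the genome. Whether unspliced RNA also bound it was not tested. Its 60 bases span chr12:10132085-10133201 of hg19, 1117 bases on the genome, so the probe crosses an exon junction.
CLEC12A: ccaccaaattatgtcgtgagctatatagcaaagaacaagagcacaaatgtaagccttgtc

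CLEC2B, the ligand of an NK cell receptor, was the 1 lectin gene with a probe past the unadjusted threshold, and it was lower with miR-511 mimic. The probe lies at chr12:10004978-10005037 of hg19 on the minus strand. Its processed intensity was 8.04 with miR-511 mimic and 12.7 with control mimic in experiment 1, and 9.54 and 12.3 in experiment 2, with spot errors between 2.44 and 2.66. The normalized log2 level was 3.21 ± 0.095 with miR-511 mimic and 3.57 ± 0.13 with control mimic (SD, n = 2). Both miR-511 mimic values were below both control values, by 0.20 in experiment 1 and 0.52 in experiment 2 between the paired arrays.

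The log2 fold change of CLEC2B was -0.36 with an SE of 0.12 and a 95% interval from -0.68 to -0.036 (limma, unadjusted p = 0.0367, adjusted p = 1.00). It ranked 341 by p among the 22638 tested probes. Since neither miR-511 mimic spot was well above background, the size is given only as a bound from the mean values. It was at least 1.13-fold lower against the dimmest signal that was well above background on those arrays. This bound takes no account of error, and the 95% interval reaches a smaller change, -0.036 on the log2 scale. The probe entered the tested set only through the control arrays, where it was higher. The call was lost with the experiment as a block (unadjusted p = 0.0589), with background correction by normexp (log2 fold change -0.026) and without any 1 of the 4 arrays (unadjusted p from 0.0506 to 0.164).

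**Figure D3:**
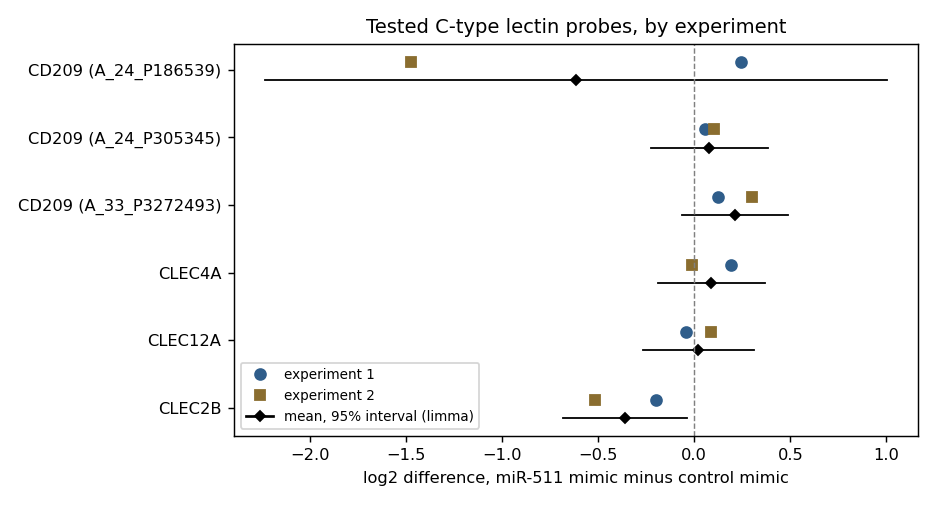
Log2 difference, miR-511 mimic minus control mimic, of the 6 tested lectin probes in experiment 1 (circles) and experiment 2 (squares), with the limma mean and its 95% interval (diamonds with lines). The interval of CLEC2B alone leaves out 0, from -0.68 to -0.036, and that of the CD209 probe A_24_P186539 is the widest, from -2.23 to 1.00.

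Over the 6 tested probes, which belong to 4 of the 10 genes, 4 log2 fold changes were above 0 and 2 below, and the median was 0.051. The median over all 22638 tested probes was 0.0098. By experiment, the medians of the 6 were 0.091 and 0.036, and 3 of the 6 had opposite signs in the experiments, while 51.0% of all tested probes had the same sign in both. The 1 call was CLEC2B, which was in the tested set only through the treatment where it was higher, so nothing is read from the count of 1 in 6. The background is 2.2% of all tested probes in either direction and 0.932% in the lower direction, and with the filter on all arrays 0 of 5 lectin probes were called.

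The adaptors and kinases through which these receptors signal were taken from a list of 40 genes, all with a probe on the array. In contrast to the receptors, 38 of the 40 were well above background on all 4 arrays. Of 46 tested probes 1 was called (2.17%, beside 2.2% of all probes), it was lower with miR-511 mimic, and 0 passed after adjustment. The median log2 fold change of the list was 0.013. FCER1G, the chain used by CLEC4E and CLEC4D, had a log2 fold change of -0.014 with an SE of 0.14. TYROBP, the adaptor of CLEC5A, was at 0.14 with an SE of 0.25. SYK was at 0.043 with an SE of 0.15 over a probe printed 10 times, and the 2 probes of CARD9 were at -0.050 and -0.14 with SEs of 0.12 and 0.13. None of these 5 probes passed the threshold.

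The called probe of that list belongs to LSP1, an actin-binding protein of leukocytes that takes part in CD209 signalling. Its normalized log2 level was 2.85 with miR-511 mimic and 3.72 with control mimic in experiment 1, and 3.19 and 3.77 in experiment 2. The probe was well above background on the control arrays only, through which alone it entered the tested set. The size is therefore given only as a bound from the mean values, at least 1.28-fold lower, which takes no account of error. Its fitted log2 fold change was -0.72 with an SE of 0.15 (limma, unadjusted p = 0.00734), and the list had 0 calls with the filter on all arrays and 0 with normexp. In contrast, the second LSP1 probe, well above background on all 4, was at 0.0049 with an SE of 0.095. The probes of LSP1 thus differed in what they showed.

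Other genes of the C-type lectin family were taken from a list of 54, of which 53 had a probe. Of these 53, 21 were well above background on all arrays and 25 on none. Among 30 tested probes 2 were called (6.67%, beside 2.2% of all tested probes), both higher with miR-511 mimic, and 0 passed after adjustment. With normexp 0 were called. The median was 0.014, and 14 of the 30 were below 0. CD248 (endosialin) was at normalized log2 levels of 4.72 and 4.65 with miR-511 mimic and 4.14 and 4.12 with control mimic, a log2 fold change of 0.56 with an SE of 0.092 (limma, unadjusted p = 0.00337). CLEC2D, a relative of CLEC2B and a ligand of KLRB1, was at 0.29 with an SE of 0.099 at 1 probe (unadjusted p = 0.0412) and at -0.011 with an SE of 0.12 at the other tested probe. CLEC4M, the neighbour of CD209, was at 0.13 with an SE of 0.11 at the probe that was tested.

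**Figure D4:**
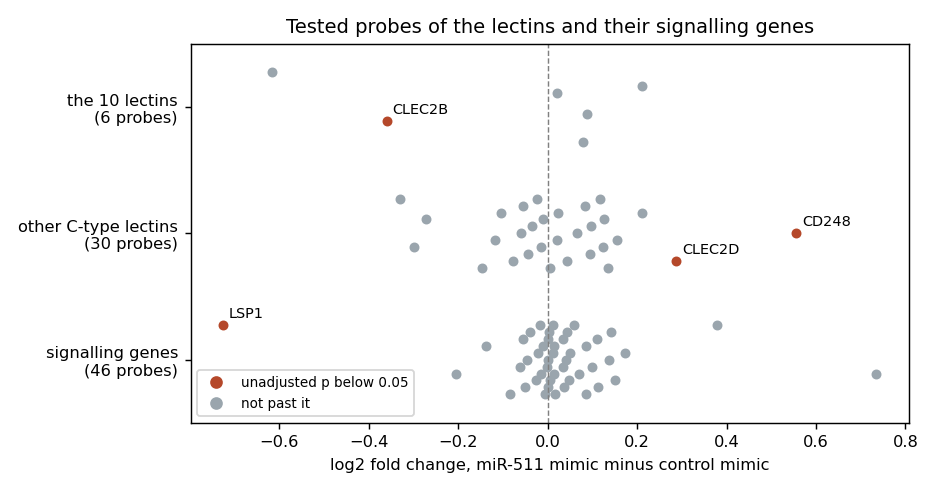
Log2 fold change, miR-511 mimic minus control mimic, of every tested probe of the 10 lectin genes (6 probes), of other C-type lectins (30) and of signalling genes (46); red marks an unadjusted limma p below 0.05, and height within a row carries no meaning. The named points CD248, at 0.56, and CLEC2D, at 0.29, were well above background on all arrays, those of CLEC2B and LSP1 only on the control arrays, so the positions of the latter are fitted values and not measured sizes. None of the 4 passed after adjustment.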

How the data were processed

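The authors deposited 1 scanner file per array, made with Agilent Feature Extraction (10.5.1.1 in the submitters' notes) against hg19 annotation, and a table of quantile-normalized log2 values. In the deposited files the processed intensity of a spot has a fitted background surface removed (the background used differed from that surface by 0 on every spot), not a local background, and near-background spots hold a surrogate value. The deposited p-value of a spot against its background, which decides the positive and significant mark, is the scanner software's own test, per the file headers. These subtractions set the level of dim probes.

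Here, log2 of the processed intensity of 43118 non-control spots was taken, 232 to 301 marked spots per array were left out, arrays were quantile normalized and spots averaged per probe, in R 4.3.3 with limma 3.58.1. The array carries 33128 probes as 1 spot and 999 as 10 spots (well above background when over 50% of spots were). limma compared the treatments without a block, with 4.14 degrees of freedom, at an unadjusted two-sided p below 0.05, the first of the study's criteria (its second, significance over identical replicate probes, was not used), with Benjamini-Hochberg adjustment over all tested probes. No spot was saturated. The number of arrays, 2 per treatment, limits the precision.

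The labels give each experiment 1 array per treatment, so the experiment number pairs the arrays, and arrays of the same experiment deviated together from the treatment means (correlation 0.271 over 22638 probes). Alternatives were 75th percentile scaling, normexp (offset 50), no filter, a filter on all arrays, marked spots kept, the deposited table, the experiment as a block, an intensity trend, a plain t-test and leaving out each array. Simulated data were drawn for the 22638 tested probes of this comparison from each probe's own mean and residual SD. Of probes changed by 3 on the log2 scale, 100 of 100 had an unadjusted limma p below 0.05 (77 after adjustment). Of those changed by 1.5 it was 96 of 100 (53 after adjustment), and of unchanged probes 5.46% (7 probes after adjustment). The draws held no experiment effect, and both sizes were above every fitted lectin change. Power for changes of the size seen in the lectins was not tested.

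The 10 genes and the gene lists were chosen with earlier results of these data known. The named probes are all those of the 10 genes, those of a list past the threshold, and FCER1G, TYROBP, SYK and CARD9. Since MRC1 was not well above background on all arrays, genes of like pattern were not sought. Current names came from RefSeq (GRCh38.p14), in which all 14 probes matched by accession; sequences of miRNAs came from RefSeq and those of probes from the scanner files.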

Additional observations from a re-analysis of the deposited data

How the results depend on the processing

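After adjustment 0 probes passed under every setting, the lowest adjusted p being 0.0702, without the miR-511 mimic array of experiment 1. The number of lectin probes past the unadjusted threshold, 1 as reported, was 0 with normexp, with the filter on all arrays (which leaves CLEC2B untested), with the experiment as a replicate block, with the intensity trend and with a plain t-test, and 0 to 1 without each array in turn. The 1 was then the CD209 probe A_24_P186539, without the control array of experiment 1, a fit in which the lone control array is assumed to vary like the miR-511 mimic arrays. Over all genes, 498 became 265 with normexp, 1029 without the filter, 894 with the replicate block, 285 with the trend, and 713 to 1438 without each array, the highest without the miR-511 mimic array of experiment 2. The signalling list gave 0 probes with normexp, 2 without the filter, 0 with the filter on all arrays, 2 with the replicate block and 1 to 2 without each array. The family list gave 0 with normexp, 6 without the filter, 1 with the trend and 1 to 4 without each array.

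CLEC2B kept its direction in every setting that tested it. Its unadjusted limma p was 0.00736 with 75th percentile scaling (log2 fold change -0.44). With marked spots kept, the deposited table or no filter it was 0.0362 to 0.0453. It was 0.774 with normexp (log2 fold change -0.026), 0.0589 with the replicate block and 0.221 with the trend. Without each array the log2 fold change of CLEC2B ran from -0.46 to -0.27. The median log2 fold change of the tested lectin probes was 0.021 to 0.091 without each array. Without each array in turn, the log2 fold change of A_24_P186539 ran from -1.47 (without the control array of experiment 1) to 0.23 (without that of experiment 2), that of A_24_P305345 from -0.0021 (without the control array of experiment 2) to 0.16, and that of CLEC12A from -0.058 (without the miR-511 mimic array of experiment 2) to 0.10. The cause of these changes was not tested. By the positive and significant mark, 5 lectin genes in place of 3 were detected on all arrays. The slide could not be a block, since there was 1. Signal over background is a limit, since 6 of the 10 genes gave no spot well above it.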
